A study of Rattus norvegicus with 28 samples.

Results

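Of the 28 RNA-seq libraries of the study, 4 hold the comparison described here: 2 libraries of Med14 S983A INS-1 cells after 8 h of exendin-4 (Ex-4) and 2 of untreated Med14 S983A cells (CON), chosen by the genotype, treatment, time and replicate in their column names. INS-1 cells come from a rat insulinoma and release insulin, Ex-4 is a peptide agonist of the GLP-1 receptor that was given at 10 nM, and S983A puts an alanine in place of a serine of the Mediator subunit Med14. The other libraries used for comparison were WT INS-1 cells at CON and after 8 h of Ex-4, Med14 S983A cells after 1 or 16 h of Ex-4, and, for a few values, Med14 S983A cells after 8 h of 10 µM forskolin (FSK), an activator of adenylyl cyclase, with 2 libraries in each group. The comparison asks which genes respond to prolonged GLP-1 receptor signalling when Med14 cannot be phosphorylated at this residue.

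All groups shared the INS-1 background, the culture medium with serum and a change to medium without serum before treatment. How long CON cells stayed in that medium is not given and 1 CON group per genotype serves every time, so time in the medium and Ex-4 cannot be told apart. The knock-in lines were made with CRISPR-Cas9, puromycin selection and sorting of cells into wells, so each is 1 clone. The study made independent lines, and the labels do not say which line gave which library. Nothing in the labels says that the libraries of a group were separate cultures. The study's methods speak of biological replicates, and of replicates with independently made knock-in lines. Whether the libraries of a Med14 S983A group came from different lines is not given. The p-values rest on the spread between libraries within groups, pooled over all groups of the study, and this spread may be technical.

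GLP-1 is a gut hormone that binds a G protein-coupled receptor on the beta cell, and the receptor activates adenylyl cyclase, which makes cAMP. Cyclic AMP activates protein kinase A (PKA), which phosphorylates the transcription factor CREB and other proteins. CREB binds the cAMP response element (CRE) in promoters and enhancers of genes for transcription factors, for feedback inhibitors of the pathway and for secreted peptides. Mediator is the large complex that links such factors to RNA polymerase II, and Med14 is its backbone subunit.

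The values are TPM (the usual unit of transcript abundance), which are scaled for transcript length and library size. Changes are given as log2 fold change on the log2(TPM + 1) scale with the standard error (SE), which understates the change of genes near 0 TPM. A gene was called when limma gave a Benjamini-Hochberg adjusted p under 0.05 and the fold change was above 1.5, among the 10275 genes whose mean over the 28 libraries reached 1 TPM. The 4 libraries held 46397573 to 57231979 fragments, and the ERCC spike-in RNA took 0.827 ± 0.012% of fragments in CON and 0.801 ± 0.044% at 8 h (SD, n = 2). Replicates correlated at r = 0.998 in CON and 0.999 at 8 h over genes, which are not independent.

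The cell type was checked on marker genes. Ins1 was at 38834 and 42395 TPM in CON and 47594 and 48326 TPM at 8 h, and Ins2 at 32620.4 and 37516 TPM and 27475 and 26489 TPM, and since both genes are near copies the split of reads between them is uncertain. The 9 beta cell markers in the table summed to 76070 to 84600 TPM in CON and 78690 to 79050 TPM at 8 h. Of 7 markers of alpha, delta and PP cells, 5 stayed at or under 0.126 TPM in all 4 libraries, among them Irx2, listed at 0 TPM, and Gcg is described below. Of 11 acinar and duct markers 10 were under 1 TPM in both CON libraries and 9 in both 8 h libraries, and Prss1, Prss2, Pnlip, Amy2a3 and Cftr were listed at 0 TPM in all 4 libraries. The 10 endothelial, fibroblast and immune markers summed to at most 3.77 TPM. Med14 itself stood at 19.6 and 20.3 TPM in CON and 25.5 and 25.4 TPM at 8 h (log2 fold change 0.34 ± 0.07, not called), which does not check the genotype, since a substituted residue need not change the transcript level.

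At 8 h of Ex-4, 647 of 10275 genes were called in Med14 S983A cells, which is 6.30% of those tested. Of these 330 were higher (3.21%) and 317 lower (3.09%) than in CON. The changes were mostly moderate, with a median log2 fold change of 0.83 among the higher genes and -0.74 among the lower. Over 2-fold changes were seen in 116 higher and 43 lower genes, and over 4-fold changes in 21 higher genes and 1 lower gene. The groups did not overlap in 646 of the 647 called genes, against 74.54% of all genes tested. The median of all genes tested was -0.03, and when libraries were scaled on the ERCC counts the split was 387 higher and 276 lower.

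Mest, an imprinted gene of the alpha/beta hydrolase fold family on chr4:58052786-58063231 of rn6, rose most of the genes whose mean was 10 TPM or more, from 50.1 and 50.9 TPM in CON to 437 and 435 TPM at 8 h (log2 fold change 3.09 ± 0.05, limma adjusted p = 2.28e-23). Stc1, which encodes the secreted glycoprotein stanniocalcin 1, went from 12.4 and 11.8 TPM to 86.1 and 82.2 TPM (2.70). Crem, which encodes the cAMP-responsive repressor ICER among its products, went from 5.48 and 3.97 TPM to 34.1 and 36.6 TPM (2.68). In all of these the 8 h libraries lay far above both CON libraries and close to each other.

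The next genes in this order were a hormone gene and regulators. Gcg, the proglucagon gene, went from 6.09 and 6.55 TPM to 38.5 and 41.9 TPM (2.49). Id4, an inhibitor of basic helix-loop-helix factors, went from 17.2 and 16.4 TPM to 93.7 and 90.2 TPM (2.39). Nr4a1, an orphan nuclear receptor and a classical CREB target, went from 6.53 and 7.36 TPM to 39.5 and 39.1 TPM (2.34). Other genes among the 12 largest rises were Tent5a, a poly(A) polymerase (2.26), the neuropeptide genes Cartpt and Cck, the pseudokinase gene Trib3 (2.10) and the stress-induced cytokine gene Gdf15 (2.06).

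Falls were smaller. Nr1d1, the clock repressor REV-ERB alpha, fell most, from 24.9 and 26.3 TPM to 5.82 and 5.24 TPM (log2 fold change -2.03 ± 0.08, adjusted p = 6.52e-16), and was the called gene past 4-fold in this direction. Txnip, the thioredoxin-interacting protein that rises with glucose and with ChREBP activity, fell from 55.9 and 52.9 TPM to 13.5 and 13.1 TPM (-1.96 ± 0.08). Igfbp1, an insulin-like growth factor binding protein, fell from 16.7 and 18.1 TPM to 4.42 and 3.52 TPM (-1.89). The 8 h libraries were below both CON libraries in each case.

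Adora2b, an adenosine receptor that couples to adenylyl cyclase, fell from 25.3 and 26.4 TPM to 6.66 and 6.63 TPM (-1.81). Serping1, the C1 inhibitor (-1.52), Olfml2b (-1.50), Phkg1, a phosphorylase kinase subunit (-1.44), Tcp11l2 (-1.42), Rph3a, a Rab3 effector (-1.32), and Arl4d, a small GTPase (-1.31), followed. Nrtn, the growth factor neurturin, had the widest spread of the named genes, with 72.9 and 94 TPM in CON and 35.1 and 27.5 TPM at 8 h (-1.39 ± 0.23, adjusted p = 1.63e-05).

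**Figure D1:**
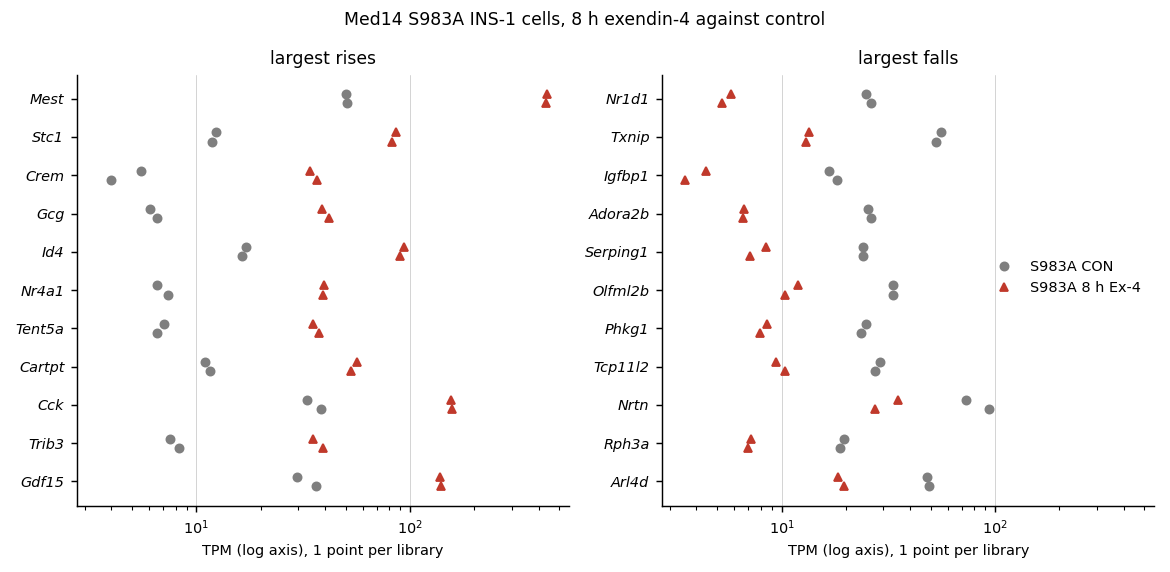
TPM on a log axis in the 2 CON libraries (grey circles) and the 2 libraries of 8 h Ex-4 (red triangles) of Med14 S983A cells, for 11 of the 12 genes with the largest rise (left) and 11 of the 12 with the largest fall (right) among called genes whose mean over the 4 libraries was 10 TPM or more. In all genes drawn the symbols of both groups stand apart, from Mest at 50.1 and 50.9 against 437 and 435 TPM to Nrtn, whose replicates are spread most widely.

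The AP-1 family holds dimeric factors of the immediate-early response. Of 8 tested members 5 were called higher and 0 lower, with a median of 0.65 against -0.03 over all genes tested. Fos went from 0.993 and 0.958 TPM to 5.23 and 5.16 TPM (1.65 ± 0.10), Fosl2 from 1.35 and 1.57 TPM to 7.05 and 8.83 TPM (1.86) and Atf3 from 3.36 and 2.94 TPM to 9.2 and 10.9 TPM (1.41). Junb rose by 0.68 and Fosb, which stayed under 1 TPM, by 0.62, while Jun stood at 15.5 and 16.1 TPM and 17.1 and 16.8 TPM (0.10, not called).

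Of 18 CREB targets and feedback genes of the cAMP pathway, 14 were called higher and 0 lower, with a median of 0.99. Beside Crem and Nr4a1, Sik1, a kinase that phosphorylates and inactivates CREB coactivators, went from 1.71 and 1.27 TPM to 10.2 and 12.3 TPM (2.30 ± 0.10). Irs2, the insulin receptor substrate, went from 30.1 and 30.2 TPM to 61.6 and 61.8 TPM (1.01 ± 0.05, adjusted p = 8.82e-14), and Ppargc1a, a coactivator of mitochondrial genes, from 1.89 and 2.27 TPM to 7.08 and 6.65 TPM (1.36). Each of these had both 8 h libraries above both CON libraries.

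Phosphodiesterases, which break down cAMP, formed much of this list. Pde10a went from 7.71 and 7.85 TPM to 25.1 and 24.8 TPM (1.56), Pde4b from 3.49 and 3.4 TPM to 11.2 and 11.8 TPM (1.49), and Pde4d and Pde3b rose by 0.97 and 0.80. Rgs2, which speeds GTP hydrolysis by G proteins, rose from 9.49 and 7.93 TPM to 16.9 and 17.1 TPM (0.90), and Gem, a small GTPase that inhibits calcium channels, rose by 0.95. The phosphatase gene Dusp1 was at 17.3 and 16.9 TPM and 18.1 and 17.1 TPM (0.04, not called). Nr4a2 (0.51) and Per1 (0.54) were not called, although edgeR on the recovered fragments called both higher, Nr4a2 at 0.71 and Per1 at 0.59.

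The receptor and the upstream machinery held 1 called gene. Of 30 tested genes for the GLP-1 receptor, adenylyl cyclases, PKA and CREB, 0 were called higher and 1 lower by limma, edgeR and DESeq2, with a median of -0.10, and 5 were higher and 13 lower at an unadjusted p under 0.05. Of all 10275 genes tested, 5742 had an unadjusted limma p under 0.05 in this comparison, so such counts are common. Glp1r stood at 88.9 and 89.1 TPM in CON and 83.3 and 78.6 TPM at 8 h (-0.14 ± 0.04, not called), and Gipr, the receptor for the other incretin hormone, at 101 and 97.7 TPM and 73.6 and 72 TPM (-0.44 ± 0.12, not called). The called gene was Prkacb, a catalytic subunit of PKA, which fell from 91.7 and 87.1 TPM to 58 and 55.9 TPM (-0.64 ± 0.06). Prkar1a, a regulatory subunit, was at 389 and 364 TPM and 503 and 508 TPM (0.42, not called).

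Secreted peptides had the largest median of the lists, although it rests on 6 tested genes. Of these 4 were called higher and 0 lower, with a median of 1.61. Cck, the cholecystokinin gene, went from 33.1 and 38.5 TPM to 155 and 157 TPM (2.10 ± 0.05), Cartpt, which encodes the CART peptide, from 10.9 and 11.6 TPM to 56.2 and 53.1 TPM (2.18 ± 0.07), and Gast, the gastrin gene, from 7.37 and 8.15 TPM to 26.1 and 26.7 TPM (1.65). Tac1, the precursor of substance P, rose by 1.58. Nmu, the neuromedin U gene, was tested because it is expressed in other groups, and was at 0.052 and 0.026 TPM and 0.025 and 0 TPM here.

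Granule cargo genes went in both directions. Vgf, a granin-like neuropeptide precursor, went from 51.9 and 59.4 TPM to 204 and 194 TPM (1.82 ± 0.07) and Chgb, chromogranin B, from 176 and 176 TPM to 322 and 343 TPM (0.91), while Scg2, secretogranin II, fell from 1378 and 1335 TPM to 846 and 806 TPM (-0.72 ± 0.04). These were the 3 called genes among 13 for the insulins and prohormone processing, whose median was -0.05. Ins1 had a log2 fold change of 0.24 ± 0.05 and Ins2 of -0.37 ± 0.06, neither past 1.5-fold, and Pcsk1, the prohormone convertase, of -0.48 (not called). Of 21 exocytosis genes, the synaptotagmin genes Syt4 (1.15) and Syt5 (1.06) and the priming factor Unc13a (0.62) were called higher. The Rab effector Rph3al fell from 121 and 129.6 TPM to 67.7 and 69.5 TPM (-0.86).

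Promoter sequences of 6 called genes are shown with a response element that each holds. They are the 250 bases before the transcription start, 5′ to 3′ on the strand of the gene, from RefSeq on GRCr8, a later build than the rn6 of the deposited values. Capitals mark the motif. Vgf, Cartpt and Scg2 hold a full CRE (TGACGTCA), at 90 to 83, 142 to 135 and 123 to 116 bases before the start, Insig1 holds CACNCCAC, a sterol element-like match on the other strand, Hspa5 holds an ER stress element (CCAAT, 9 bases and CCACG), and Trib3 holds TGATGNAA, an ATF4 site-like match on the other strand. Hspa5 and Trib3 were chosen after their values were seen. For Vgf, Cartpt, Scg2 and Insig1 a motif match was a condition of the choice, so its presence is not a result. In rn6 the transcripts lie at chr12:22677607-22680630 (Vgf), chr2:30125249-30127269 (Cartpt), chr9:85237537-85242842 (Scg2), chr4:342302-350515 (Insig1), chr3:13838304-13842763 (Hspa5) and chr3:147814066-147819650 (Trib3).
Vgf: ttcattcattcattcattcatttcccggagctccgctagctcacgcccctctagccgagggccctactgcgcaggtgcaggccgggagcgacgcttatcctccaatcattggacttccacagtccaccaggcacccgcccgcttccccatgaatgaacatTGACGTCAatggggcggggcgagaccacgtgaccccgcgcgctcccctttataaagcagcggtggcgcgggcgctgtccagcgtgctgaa
Cartpt: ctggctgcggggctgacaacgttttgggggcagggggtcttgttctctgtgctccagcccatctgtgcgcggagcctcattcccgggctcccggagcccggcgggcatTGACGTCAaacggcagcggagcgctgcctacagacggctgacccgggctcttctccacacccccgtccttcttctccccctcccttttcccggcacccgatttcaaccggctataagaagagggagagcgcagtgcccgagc
Scg2: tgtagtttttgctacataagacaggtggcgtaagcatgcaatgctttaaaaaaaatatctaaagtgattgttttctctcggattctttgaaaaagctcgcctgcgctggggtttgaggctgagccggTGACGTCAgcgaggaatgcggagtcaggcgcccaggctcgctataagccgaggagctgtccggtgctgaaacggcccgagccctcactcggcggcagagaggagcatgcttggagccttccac
Insig1: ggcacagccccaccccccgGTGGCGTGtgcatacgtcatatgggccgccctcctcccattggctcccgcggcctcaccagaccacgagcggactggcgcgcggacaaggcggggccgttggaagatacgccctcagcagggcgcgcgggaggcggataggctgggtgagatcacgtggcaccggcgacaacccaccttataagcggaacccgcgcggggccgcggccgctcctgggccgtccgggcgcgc
Hspa5: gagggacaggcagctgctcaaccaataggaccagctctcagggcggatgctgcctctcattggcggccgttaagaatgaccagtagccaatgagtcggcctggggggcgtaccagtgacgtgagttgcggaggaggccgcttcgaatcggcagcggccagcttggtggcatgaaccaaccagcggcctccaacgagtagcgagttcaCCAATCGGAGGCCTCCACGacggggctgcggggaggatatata
Trib3: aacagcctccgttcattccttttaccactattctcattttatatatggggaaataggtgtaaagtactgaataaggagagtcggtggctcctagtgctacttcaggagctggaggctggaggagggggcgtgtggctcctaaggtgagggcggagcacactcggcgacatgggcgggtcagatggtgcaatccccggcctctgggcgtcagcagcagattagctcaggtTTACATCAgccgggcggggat

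Of the 10275 tested genes, 8201 had a promoter in the table by symbol, and both strands were searched. The full CRE stood in 3.92% of 255 promoters of genes called higher and 3.32% of 241 of genes called lower, against 3.11% of the promoters of tested genes and 1.7% of all 27457. Its core TGACG, which every full CRE also holds, stood in 36.9% and 21.2%, against 29.9% of tested genes and 19% of all. The AP-1 motif TGANTCA stood in 7.06% and 2.49%, against 4.01% and 6.36%. The sterol element-like motif stood in 6.27% and 6.22%, against 5.01% and 4.84%. A match is a description of the letters in this window, and Scg2 and Cartpt carry the same element while their transcripts moved in opposite directions.

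Genes of the amino acid response formed another large group. Of 28 tested ATF4 targets and tRNA synthetases, 18 were called higher and 0 lower, with a median of 0.68, and all 28 had estimates above 0. ATF4 is the transcription factor of the integrated stress response, which turns on amino acid synthesis and uptake. Atf4 itself went from 376 and 360.4 TPM to 811 and 840.3 TPM (1.16 ± 0.05), and Ddit3, the factor CHOP, from 55 and 56.8 TPM to 109 and 112 TPM (0.97). Both 8 h libraries of each were far above CON.

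Among the effectors, Slc7a11, the cystine transporter, rose from 0.9 and 0.704 TPM to 7.92 and 8.51 TPM (2.36 ± 0.09), Trib3 from 7.51 and 8.27 TPM to 35.1 and 39.1 TPM, and Chac1, which degrades glutathione, from 12.3 and 12.7 TPM to 46.3 and 51.5 TPM (1.88 ± 0.09). Asparagine synthetase (Asns) went from 129.8 and 121 TPM to 221 and 219 TPM (0.81). The serine pathway enzymes Psat1 (1.06) and Psph (0.64) rose, as did the transporters Slc7a5 (0.83) and Slc7a1 (0.83). Of the synthetases, Eprs (0.77), Nars1 (0.70) and Sars1 (0.60) were called, Sars1 not without CON replicate 2 (0.575). The ATF4 site-like match stood in 6 of 24 promoters of this list (25%; Trib3, Chac1, Slc7a1, Nars1, Iars1 and Mars1), against 6.27% of genes called higher and 1.77% of tested genes.

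Of 25 tested genes for folding in the endoplasmic reticulum (ER), 14 were called higher, 0 lower and 11 in neither direction, with a median of 0.61. Hspa5, the chaperone BiP, went from 1982 and 1816 TPM to 3569.9 and 3522 TPM (0.90 ± 0.05, adjusted p = 3.35e-14), Creld2, an ER stress-induced secreted protein, from 384 and 363 TPM to 799 and 814 TPM (1.11 ± 0.04), and Hyou1, an ER chaperone, from 291 and 282 TPM to 596 and 589 TPM (1.05). The disulfide isomerase gene Pdia4 (0.95), the cochaperone gene Dnajb11 (0.93), Hsp90b1 (0.78) and Calr, calreticulin (0.73), rose by similar amounts. Ero1b, the oxidase that supplies disulfides and is enriched in the pancreas, was the member with the opposite sign, at 81.1 and 71.8 TPM in CON and 56.6 and 53.6 TPM at 8 h (-0.46 ± 0.05, under 1.5-fold and not called).

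Of 15 genes for ER stress sensing and degradation, 6 were called higher and 0 lower, with a median of 0.51. The sensor kinase gene Ern1 went from 7.95 and 7.91 TPM to 13.4 and 12.5 TPM (0.65) and Herpud1 from 134 and 141 TPM to 222 and 225 TPM (0.70), with Selenos (0.72) and Sec23b, a coat protein of ER export vesicles (0.65), also called. Xbp1, the transcription factor of this response, was at 269 and 256 TPM and 310.1 and 304 TPM (0.23 ± 0.04, not called), and TPM does not measure its splicing. The ER stress element shown above for Hspa5 stood in 7 of 20 promoters of the folding list (35%), those of Hspa5, Hsp90b1, Calr, Canx, Dnajc3, Creld2 and Ero1b, against 0.183% of tested genes, 2.35% of genes called higher and 0% of those called lower.

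**Figure D2:**
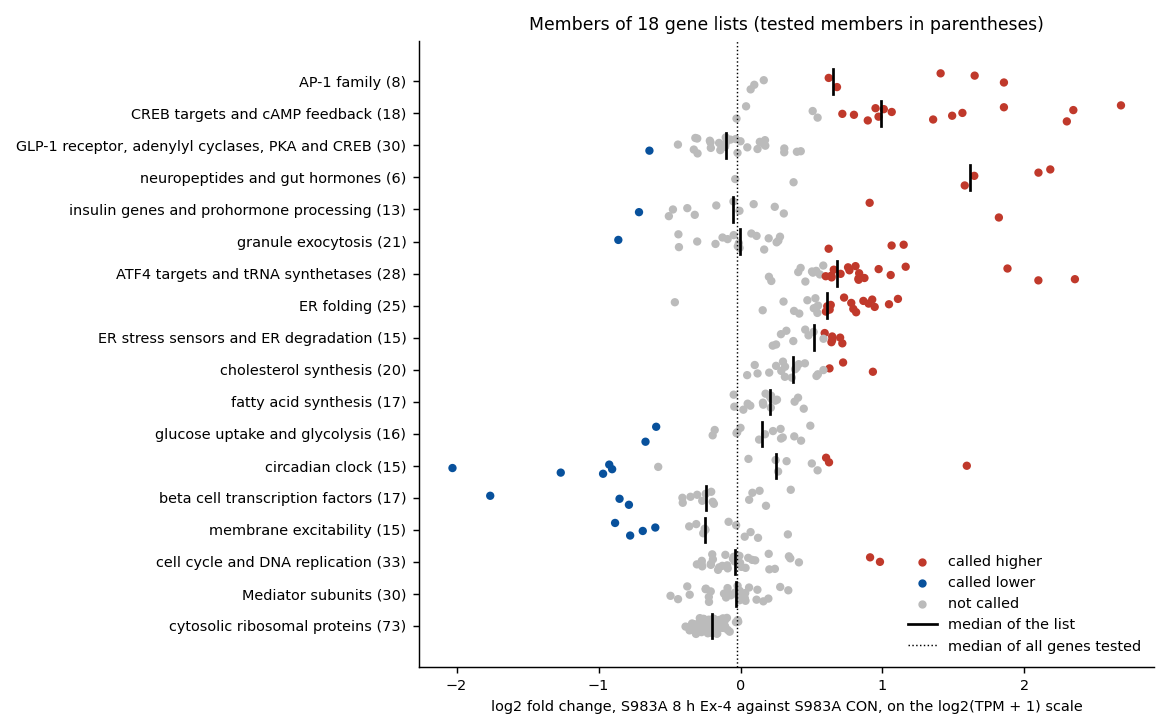
Log2 fold change of Med14 S983A cells given Ex-4 for 8 h for each tested member of 18 gene lists, with members called higher in red, called lower in blue and others in grey. Black bars are list medians and the dotted line is the median of all genes tested (-0.03). The peptide, CREB target, ATF4 and ER folding lists lie to the right (medians 1.61, 0.99, 0.68 and 0.61), and the ribosomal protein list is tight around -0.20.

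Genes of cholesterol synthesis had small positive estimates. All 20 were above 0, with a median of 0.37, and 3 were called higher: Msmo1, a sterol demethylating oxidase, which went from 199.9 and 177 TPM to 355 and 365 TPM (0.93 ± 0.05), Cyp51 (0.72) and Hmgcs1 (0.63, 0.54 and not called without CON replicate 2). Idi1, the isopentenyl diphosphate isomerase gene (0.58), lay just under the fold threshold. Without CON replicate 1, and when libraries were scaled on the ERCC counts, 5 genes were called. Of 15 sterol sensing and transport genes, Insig1, which holds back the SREBP activator, went from 137 and 122 TPM to 203 and 204 TPM (0.65, 0.57 and not called without CON replicate 2) and the carrier gene Stard4 rose by 0.73.

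No fatty acid synthesis gene was called by limma (0 of 17, median 0.21), and 1 was called higher by edgeR and by DESeq2. At an unadjusted p under 0.05, 12 were higher, and 5742 of all 10275 genes tested changed in either direction. Scd2, a fatty acid desaturase, was at 1837 and 1681 TPM and 2415 and 2371 TPM (0.45 ± 0.05). In fatty acid oxidation 1 of 19 genes was higher, Cyp4a8 (9.28 and 8.66 TPM and 17.9 and 18.1 TPM, 0.93), and 1 lower, Ech1 (-0.66), with 2 lower without CON replicate 2 or without 8 h replicate 1. Over all genes tested 3.21% were called higher and 3.09% lower. The genes of glucose handling that moved were few. Slc2a2, the glucose transporter GLUT2, fell from 63.6 and 61.7 TPM to 40.5 and 37.6 TPM (-0.67 ± 0.05), and Aldoc fell by 0.59 on the log2 scale, a call lost without CON replicate 1 (-0.56) or 8 h replicate 2 (-0.49), with centring (-0.56) and with ERCC scaling (-0.55). These were the 2 called among 16 genes, whose median was 0.15, and Aldoa was at 1020.5 and 1080.0 TPM and 1483 and 1470.1 TPM (0.49, not called).

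Pdk2, a kinase that inhibits pyruvate dehydrogenase, fell from 50.6 and 52.2 TPM to 24.2 and 25 TPM (-1.03 ± 0.06). It and Sucla2 (0.59, not called without CON replicate 2, 0.48, or 8 h replicate 2, 0.53) were the called genes among 28 of the pyruvate dehydrogenase complex, the TCA cycle and the shuttles. That share was close to the 6.30% called over all genes tested. Of 68 respiratory chain and ATP synthase genes, 1 was called, Atp5mc1 (951 and 989.6 TPM and 1441 and 1546 TPM, 0.62), and none without 8 h replicate 2 (0.57). The list median was -0.01.

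Besides Txnip, 2 other genes of the 7 that include the arrestin-domain family and ChREBP were lower: Arrdc4 (94.5 and 88 TPM and 56.2 and 54.5 TPM, -0.71) and Mlxipl, the gene of ChREBP itself, a factor that responds to glucose (209 and 218 TPM and 125 and 127 TPM, -0.76). In insulin receptor signalling, 2 of 14 genes rose and 0 fell. They were Igf1r, the IGF-1 receptor, from 12 and 12.6 TPM to 28.2 and 26.8 TPM (1.10 ± 0.08), and Irs2. Of 13 NRF2 antioxidant targets 3 rose, Srxn1 (0.95), Hmox1 (0.92) and Gclc (0.60, not called without CON replicate 2, 0.54, or 8 h replicate 2, 0.56). The shares called over all genes tested were 3.21% higher and 3.09% lower.

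Genes of the circadian clock moved in both directions. Of 15 tested, 5 were lower and 3 higher, against 3.09% and 3.21% of all genes tested. Those that fell were the repressors Nr1d1 and Nr1d2 (-0.90), Per3 (10.2 and 10.8 TPM and 3.76 and 3.79 TPM, -1.27), and the clock output factors Dbp (91 and 95 TPM and 48.5 and 48.5 TPM, -0.92) and Tef (-0.97). Nfil3, a repressor that binds the same elements as Dbp, rose from 7.05 and 6.76 TPM to 22.9 and 22.8 TPM (1.59 ± 0.05), with Arntl (0.60, 0.56 without CON replicate 2) and Cry1 (0.62, 0.575 without 8 h replicate 2), both of which then were not called.

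Among beta cell identity factors and channel genes, those called were all lower. Over all genes tested 3.09% were called lower and 3.21% higher. Of 17 transcription factors 3 were lower and 0 higher, with a median of -0.25. Among them were Neurod1, from 215 and 221 TPM to 122 and 119 TPM (-0.85 ± 0.05), and Rfx6, from 152 and 144 TPM to 86.8 and 84.1 TPM (-0.79). Pdx1 was at 324 and 342 TPM and 254 and 248 TPM (-0.41, not called). Of 15 genes of membrane excitability 4 were lower and 0 higher, with a median of -0.25: the calcium channel genes Cacna1a (12.7 and 13.1 TPM and 6.65 and 6.43 TPM, -0.88) and Cacnb3 (-0.60), and the potassium channel genes Kcnh6 (-0.69) and Kcnn3 (-0.78). Cacnb3 was not called without CON replicate 2 (-0.58) or 8 h replicate 2 (-0.575), nor under either scaling.

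Several large groups held few or no called genes. Of 30 Mediator subunits 0 were called by limma in either direction, with 4 higher and 11 lower at an unadjusted p under 0.05, a median of -0.03 and Med25 lowest at 129.6 and 142 TPM and 99.1 and 93.3 TPM (-0.49). The limma count was also 0 of 13 for the BCL2 family, where Bcl2l1 was at 85.8 and 86.1 TPM and 61.7 and 60.7 TPM (-0.48), 0 of 73 for cytosolic ribosomal proteins, 0 of 67 for mitochondrial ones and 0 of 37 for proteasome subunits, and edgeR and DESeq2 called 0 genes in these lists and in Mediator. At an unadjusted p under 0.05, 4 BCL2 genes were higher and 5 lower, 0 cytosolic ribosomal protein genes were higher and 64 lower, 16 mitochondrial ones were higher and 18 lower, and 28 proteasome genes were higher and 3 lower. Of all 10275 genes tested, 5742 had such a p in either direction. Cytosolic ribosomal protein genes lay between -0.39 and -0.02, all below 0, and 33 of 37 proteasome genes lay above 0 with a median of 0.16, so neither set reached 1.5-fold. Of 12 cytosolic heat shock genes limma called 0, with 6 higher and 1 lower at an unadjusted p under 0.05, edgeR and DESeq2 called 1, and limma called 1 without CON replicate 2 or 8 h replicate 1. Of 33 cell cycle genes 2 were higher, Cdk6 (1.41 and 1.84 TPM and 4.21 and 4.13 TPM, 0.98) and Ccnd1 (0.071 and 0.086 TPM and 1.15 and 0.916 TPM, 0.91), both at low levels, while mitotic genes such as Plk1 (0.04) and Birc5 (-0.11) were not called. The share called in this list was close to the 6.30% of all genes tested.

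WT cells given the same treatment share no library with these groups. In WT, 371 genes were higher (3.61%) and 615 lower (5.99%) at 8 h. Of the genes called higher, 217 were shared, which is 65.8% of the Med14 S983A list and 58.5% of the WT list, and of those called lower 227, which is 71.6% and 36.9%. Psph was the 1 gene called in opposite directions. The median of the 330 Med14 S983A genes was 0.83 there and 0.72 in WT, and that of the 317 lower genes was -0.74 and -0.75. Both sets were picked on the Med14 S983A change, so these medians do not compare the sizes of the responses.

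Whether a response differed between genotypes was tested as an interaction, the log2 fold change in Med14 S983A minus that in WT. It was called higher in 203 genes (1.98%) and lower in 82 (0.798%), and the median of all genes was 0.07. With each library centred on its median the split was 128 and 120, and with ERCC scaling 150 and 110. Of the 330 genes that rose in Med14 S983A cells, the difference was higher in 50 and lower in 13, and of the 317 that fell, higher in 7 and lower in 9. The 330 and 317 were picked on values that enter the difference, so these counts do not show which genotype responded more. Many of the 203 and 82 genes already differed between the lines without treatment. At CON 19.4% of tested genes were called between Med14 S983A and WT. Among them were 63.5% of the genes with a higher and 61% of those with a lower difference. The substitution and other differences between the clones and WT cells cannot be told apart here.

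The difference depends on the scale for genes near 0 TPM in 1 genotype. Of the 203 and 82 genes, 41 and 29 had a mean under 1 TPM in the libraries of either genotype. The edgeR test on recovered fragments called 16 and 7 of these in the same direction, and 137 of the other 162 and 53 of the other 53.

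**Figure D3:**
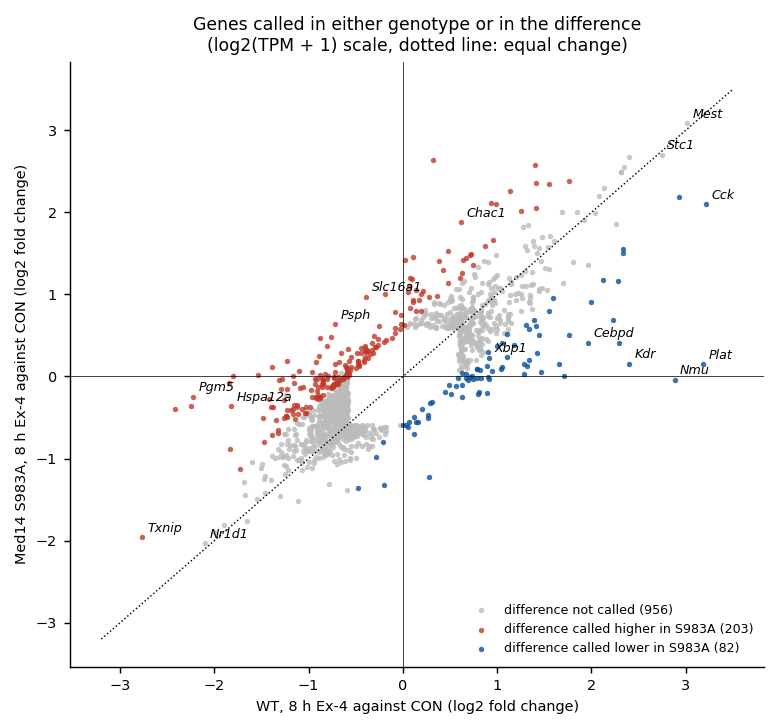
Log2 fold change at 8 h of Ex-4 in WT (horizontal axis) and Med14 S983A cells (vertical axis) for 1241 genes called in either genotype or in the difference between them. Grey points have no called difference (956 genes), red ones a higher (203) and blue ones a lower difference (82), and along the dotted line both changes are equal. Mest, Stc1 and Nr1d1 lie near the line, Psph and Slc16a1 above it and Plat, Nmu, Kdr and Cebpd below it.

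Some ATF4 target genes responded more in Med14 S983A cells than in WT. Of 28 in the list, the difference was called higher in 6 and lower in 0, against 1.98% and 0.798% of all genes tested. Psph, the last enzyme of serine synthesis, rose from 53.7 and 51.6 TPM to 82.5 and 82.7 TPM in Med14 S983A cells and fell from 129 and 133 TPM to 77.4 and 81 TPM in WT (difference 1.36 ± 0.07, adjusted p = 5.17e-13). In WT the list held 9 higher and 1 lower gene, with a median of 0.33 against 0.68.

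Chac1 went from 3.04 and 2.65 TPM to 4.87 and 4.89 TPM in WT and so differed by 1.27 ± 0.12, Psat1 went from 85.8 and 85.1 TPM to 94.6 and 93.7 TPM in WT (difference 0.92 ± 0.07), and Trib3 from 1.6 and 2.3 TPM to 5.01 and 4.59 TPM (1.11 ± 0.13). Slc7a1 also differed (0.76). Chac1 and Trib3 were already higher at CON in Med14 S983A cells, by 1.82 and 1.60. The difference for Slc7a11 (0.95) turned to -0.64 under edgeR, and WT started at 0.128 and 0.133 TPM.

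Other genes with a larger response were Slc16a1, a monocarboxylate transporter gene that rose from 9.78 and 9.59 TPM to 19.86 and 19.99 TPM and was at 7.31 and 7.39 TPM and 5.53 and 5.23 TPM in WT (difference 1.36 ± 0.11), and Tent5a (24.6 and 23.4 TPM and 52.8 and 54.7 TPM in WT, 1.13 ± 0.08). Of 18 CREB targets and cAMP feedback genes, the difference was higher in 3, among them Nr4a1 (0.79) and Pde4b (0.77), and lower in 0. The list median was 0.09, against 0.07 over all genes tested. The difference was also higher for the AP-1 family member Atf3 (1.02) and the clock gene Nfil3 (0.72). It was also called for Id4 (0.62, 0.53 and not called without WT CON replicate 2, nor with centring or ERCC scaling) and Gdf15 (0.64, 0.50 and not called without CON replicate 1, nor with centring, ERCC scaling or either count test).

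A higher difference also arose where WT fell and the gene was not called in Med14 S983A cells. Hspa12a fell from 39.4 and 37.8 TPM to 10.3 and 10.1 TPM in WT and was at 5.56 and 5.09 TPM and 3.85 and 3.99 TPM in Med14 S983A cells (1.46 ± 0.09). The same held for Id2 (1.28) and the clock repressor genes Bhlhe40 (0.78) and Ciart (1.13). Cyp4a8, which rose in Med14 S983A cells, was at 41.9 and 40.8 TPM and 40.8 and 48.9 TPM in WT (difference 0.82). Txnip fell in both, from 329 and 312 TPM to 47.3 and 45 TPM in WT (0.81 ± 0.12). Pgm5 (1.98) and Selenop (1.26) were at most 0.377 TPM in Med14 S983A cells, against 83.3 and 87.5 TPM and 29 and 29.5 TPM in WT CON, and their differences were not called by edgeR (0.58 and 0.20).

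Peptide genes were among those with a smaller response. Cck went from 24.1 and 25.5 TPM to 236 and 242 TPM in WT (difference -1.12 ± 0.07, adjusted p = 4.36e-11), against 155 and 157 TPM reached in Med14 S983A cells, and Cartpt from 7.71 and 9.07 TPM to 71.1 and 69.3 TPM (-0.74 ± 0.10). Both rose in each genotype, and the groups did not overlap. Nmu rose in WT from 0.123 and 0.452 TPM to 8.16 and 8.68 TPM and stayed under 0.1 TPM in Med14 S983A cells (-2.92). The Nmu difference was larger but not called by edgeR (-4.98) and by DESeq2 with ERCC or its own size factors (-5.14 and -5.06).

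The delayed cAMP genes that the study followed were Kdr, Plat and Osbpl6. Kdr, the VEGF receptor 2 gene, was at 0.081 and 0.043 TPM and 0.119 and 0.246 TPM in Med14 S983A cells, against 0.399 and 0.41 TPM and 6.19 and 6.64 TPM in WT (difference -2.25 ± 0.12, adjusted p = 2.51e-12). Plat, tissue plasminogen activator, was at 0.058 and 0.015 TPM and 0.116 and 0.182 TPM, against 0.955 and 1.08 TPM and 16.4 and 18.2 TPM in WT (difference -3.03 ± 0.13, adjusted p = 4.73e-14). Osbpl6, a lipid transfer protein gene, was at 4.41 and 4.19 TPM and 5.39 and 4.88 TPM (0.21), against 6.09 and 5.79 TPM and 9.93 and 9.5 TPM in WT (difference -0.42 ± 0.13, under 1.5-fold and not called).

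Both WT libraries held more of each of the 3 transcripts than both Med14 S983A libraries, at CON and at 8 h. Of the 3, limma called 0 in Med14 S983A cells (1 at an unadjusted p under 0.05) and 3 higher in WT, but with a pseudocount of 0.1 TPM Kdr (0.775) and Plat (0.87) were called higher in Med14 S983A cells, as they were by edgeR (1.56 and 2.04) and DESeq2. By edgeR the Kdr difference was still called lower, and that of Plat was -2.11 and not called.

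Other smaller responses were those of Cebpd, a C/EBP factor, which rose from 7.62 and 6.7 TPM to 30.7 and 30.8 TPM in WT and was at 7.48 and 7.98 TPM and 11.1 and 10.1 TPM in Med14 S983A cells (-1.55 ± 0.11), and of Slc2a9, a urate transporter (1.48 and 1.39 TPM and 5.64 and 5.37 TPM in WT, 20.1 and 20.3 TPM and 24.9 and 24.9 TPM in Med14 S983A cells, -1.13). Mustn1 (-1.13), Zfp703 (-1.09) and Cul4b (-0.96) behaved likewise, with WT rising and Med14 S983A cells not called. Xbp1 rose in WT from 170.4 and 162 TPM to 302 and 328 TPM (difference -0.69 ± 0.06), to a level close to that of Med14 S983A cells, which began higher. Derl3, an ER degradation gene, differed by -0.59, and the call was lost without WT CON replicate 1 (-0.55), WT 8 h replicate 2 (-0.575), CON replicate 2 (-0.55) or 8 h replicate 1 (-0.57) of Med14 S983A cells.

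Rph3a (0.468 and 0.344 TPM and 0.228 and 0.21 TPM in WT) and Aldoc (2.81 and 2.76 TPM and 3.24 and 2.52 TPM) fell in Med14 S983A cells from levels that WT did not have, and so had lower differences (-1.12 and -0.62). The Rph3a difference was not called by edgeR (-0.60), and the Aldoc difference was lost without WT 8 h replicate 1 (-0.49), CON replicate 1 (-0.58) or 8 h replicate 2 (-0.52) of Med14 S983A cells. Ccdc184, at most 0.172 TPM in Med14 S983A cells, and Ccnd1 had lower differences (-1.19 and -1.08) that edgeR put at -0.19 and 0.20. At CON, Ins2 was higher in Med14 S983A cells than in WT (3.57 ± 0.06), and Gcg (-4.52 ± 0.07) and Slc2a2 (-3.02 ± 0.05) were lower. The 8 h change of these genes did not have a called difference.

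**Figure D4:**
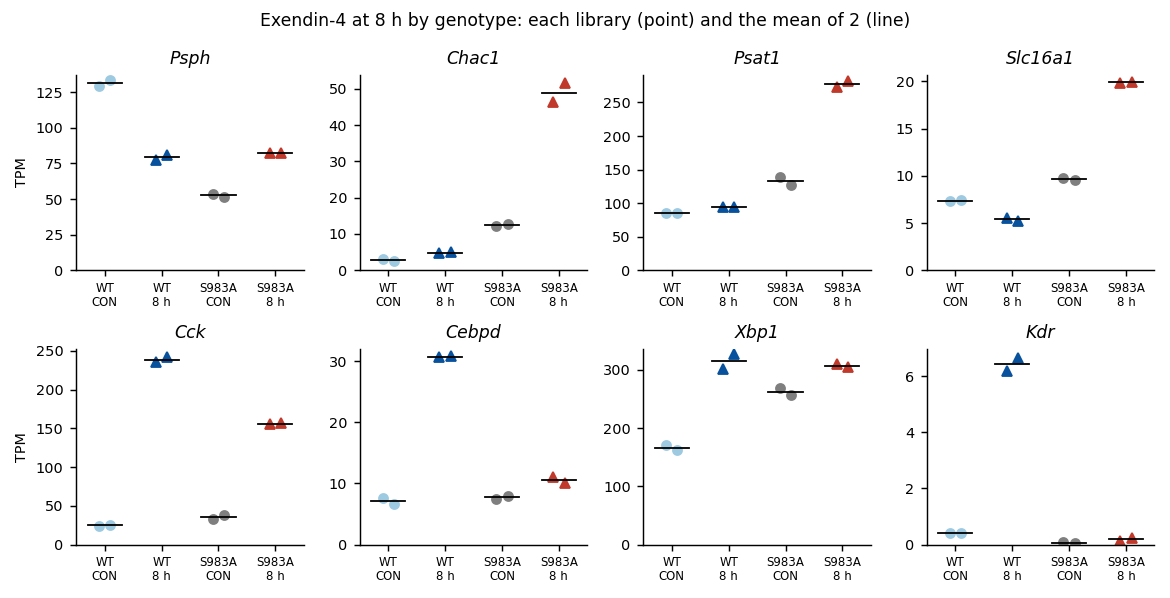
TPM in each library (points) and the group mean of 2 libraries (lines) for 8 genes with a called difference, in WT CON, WT 8 h, Med14 S983A CON and Med14 S983A 8 h. Psph, Chac1, Psat1 and Slc16a1 rise more in Med14 S983A cells, and Cck, Cebpd, Xbp1 and Kdr rise more in WT. Axes start at 0 and differ between panels.

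The 1, 8 and 16 h groups of Med14 S983A cells share their CON libraries, so times were also compared directly. Against CON, 209 genes were higher (2.03%) and 103 of 10275 lower at 1 h, and at 16 h 486 were higher (4.73%) and 735 lower (7.15%). Between 1 and 8 h, 291 genes were higher (2.83%) and 333 lower (3.24%) at 8 h. Between 8 and 16 h, 128 were higher (1.25%) and 279 lower (2.72%) at 16 h. Scaling on the ERCC counts moved the median of the latter comparison from -0.03 to -0.16 and its split to 74 and 482.

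All 8 AP-1 genes were higher than CON at 1 h, and 7 were lower at 8 h than at 1 h. Fos was at 23.1 and 28.1 TPM at 1 h and 5.23 and 5.16 TPM at 8 h (-2.10 ± 0.10), Fosl2 at 123 and 113 TPM at 1 h (-3.74), and Crem at 232 and 228 TPM at 1 h (-2.67 ± 0.08). Of 18 CREB targets 10 were lower at 8 h than at 1 h, among them Nr4a1 (-3.25) and Rgs2 (-3.23). The 4 that were higher at 8 h included Pde10a (1.51 ± 0.09) and Pde4b (0.69). Mest was at 531 and 505 TPM at 1 h and 208 and 203 TPM at 16 h, so it was already near its 8 h level at 1 h (-0.25, not called) and lower by 16 h (-1.08).

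Of the 6 peptide genes, 3 were already higher than CON at 1 h, and 2 were higher at 8 h than at 1 h. Gcg and Vgf are not among these 6. Gcg was at 6.98 and 6.97 TPM at 1 h, close to CON, and 45.5 and 43.4 TPM at 16 h (2.37 ± 0.07 from 1 to 8 h). Vgf was at 92.5 and 88.2 TPM at 1 h (1.13 from 1 to 8 h). Of the ER folding genes, 12 were higher and 1 lower at 8 h than at 1 h, and 4 were lower at 16 h than at 8 h and 0 higher. Hspa5 stood at 2132 and 2027 TPM at 1 h and 2422 and 2258 TPM at 16 h (0.77 ± 0.05 and -0.60 ± 0.05), and Creld2 fell by 16 h to 457 and 443 TPM (-0.84). The 8 h libraries had the highest level of both genes among CON, 1, 8 and 16 h.

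Of 28 ATF4 targets and tRNA synthetases, 26 were higher than CON at 16 h, and in the direct comparison of 16 h with 8 h 7 were higher and 0 lower. Trib3 reached 86.5 and 87 TPM at 16 h (1.21 ± 0.09 from 8 h), Atf3 35.1 and 31.2 TPM (1.63) and Ddit3 182 and 185 TPM (0.72). Cholesterol synthesis genes were higher than CON in 0 of 20 after 1 h, in 3 after 8 h and in 14 after 16 h, while 3 were higher at 16 h than at 8 h.

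Clock and cell cycle genes changed between 8 and 16 h. Nr1d1 returned from 5.82 and 5.24 TPM at 8 h to 26.5 and 27.8 TPM at 16 h, its CON level (2.11 ± 0.08), and Dbp rose by 0.60, while Per3 was at 3.97 and 3.61 TPM (0.00, not called). Of 33 cell cycle genes, 15 were lower at 16 h than at 8 h and 0 higher, against 2.72% and 1.25% of all genes tested. Plk1, a mitotic kinase gene, was at 153 and 148 TPM at 8 h and 63.6 and 70.2 TPM at 16 h (-1.16 ± 0.05), Birc5, survivin, at 128 and 125 TPM and 59.3 and 57 TPM (-1.10), and Ccnb1, cyclin B1, at 129 and 129 TPM and 63.4 and 65.3 TPM (-0.99). Fewer dividing cells and less of these transcripts per cell cannot be told apart in bulk libraries.

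**Figure D5:**
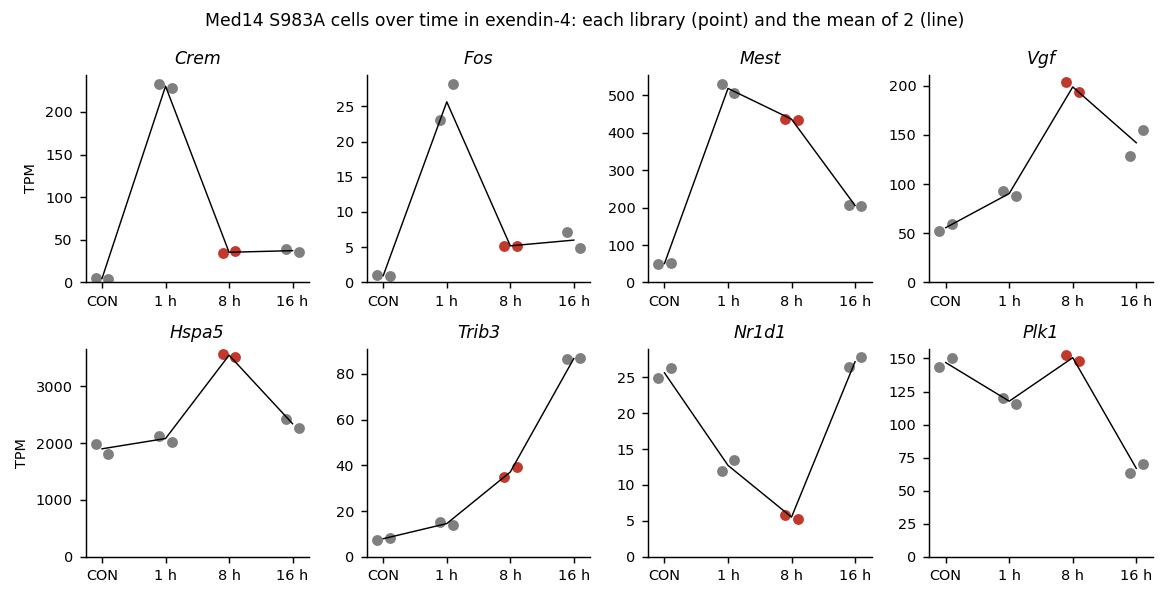
TPM in each library (points, 8 h in red) and the mean of 2 libraries (line) of Med14 S983A cells at CON and after 1, 8 and 16 h of Ex-4, for 8 genes. Crem and Fos are highest at 1 h, Mest is near its 1 h level at 8 h, Vgf and Hspa5 are highest at 8 h, Trib3 rises to 16 h, Nr1d1 is lowest at 8 h and Plk1 is lowest at 16 h. The time axis is not to scale, and panels have their own axes from 0.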

How the data were processed

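Bulk RNA-seq of INS-1 cells was analysed from the processed tables, using all 28 libraries (14 groups of 2) in the fit. The authors added ERCC spike-ins to a fixed mass of total RNA, so scaling on them measures RNA per mass and not per cell, made stranded libraries, aligned reads to rn6 and the ERCC sequences with STAR 2.5.3a, and quantified RefSeq exons as TPM with HOMER 4.11.1. The authors' deposited count table holds the counts of the 92 ERCC sequences. Their own calls used DESeq2 1.24.0 on gene counts, which are not used here.

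Of 19223 lines in the TPM table, ERCC rows were dropped and the transcript with the highest mean TPM was kept per symbol (1676 dropped, 17455 kept). Genes whose mean reached 1 TPM (10275) were fitted as log2(TPM + 1) with limma 3.58.1 in R 4.3.3 (a mean per group, eBayes with trend, two-sided, Benjamini-Hochberg adjustment within a contrast). Genes past 1.5-fold with an adjusted p under 0.05 were called. Fragments were recovered from TPM, transcript length and the deposited ERCC counts. All 60686 values checked were whole reads within 0.05 plus the rounding error of the TPM (100%, against 16.365% by chance). The largest difference from a deposited ERCC count was 0.0335. They were tested with edgeR 4.0.16 and DESeq2 1.42.0 as alternatives. On simulated data for this comparison with 100 of 10275 genes changed 2-fold and 100 changed 3-fold, limma recovered 96% and 100% with 0 wrong calls, and edgeR 98% and 100% with 0. The changed genes were drawn above a minimum expected fragment count in CON, so the recovery does not cover genes near 0 TPM. The simulated spread of each gene was estimated over all groups and was not that of this comparison alone. The other genes were given equal means in both groups, and no change near 1.5-fold was simulated. The 0 wrong calls therefore do not cover genes near that threshold.

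The fit was repeated with 0.1 TPM added, without a filter, with means of 5 TPM or more, with centring on the median, ERCC scaling, only the libraries of the contrast, a replicate block, no fold minimum and leaving out each library.

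The members and gene lists were chosen with earlier results of these data known. Named genes were Med14, Ins1, Ins2, Fos, Kdr, Osbpl6, Plat, Txnip, Irs2 and Glp1r, the 12 largest rises and falls of called genes whose mean was 10 TPM or more, up to 4 members of each list with the largest change and others needed to describe a step, and the 8 largest differences each way. Predicted models were not named, and some genes that the rule takes are not reported here. Promoters came from the RefSeq table on GRCr8, with 4 printed by rule and those of Hspa5 and Trib3 added after their values were seen. The rule took named, called genes whose promoter held a full CRE, a sterol element-like or a TGANTCA match.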

Additional observations from a re-analysis of the deposited data

Results flagged for a closer look

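Responses that differed between groups by a direct test are collected here. The 8 h response differed between Med14 S983A and WT cells in 203 genes that were higher and 82 that were lower by the interaction in limma. Within Med14 S983A cells, 8 h against 1 h gave 291 higher and 333 lower genes, and 16 h against 8 h gave 128 higher and 279 lower genes.

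Among named genes, the log2 difference of the 8 h response (Med14 S983A minus WT) was higher for the CREB targets Nr4a1 (0.79) and Pde4b (0.77), for the AP-1 family member Atf3 (1.02), for the clock gene Nfil3 (0.72), and for Id2 (1.28) and Id4 (0.62). It was higher for the listed ATF4 targets Chac1 (1.27), Psph (1.36), Trib3 (1.11), Slc7a11 (0.95), Psat1 (0.92) and Slc7a1 (0.76). The other higher differences were those of Gdf15 (0.64), Tent5a (1.13), Slc16a1 (1.36), Hspa12a (1.46), Cyp4a8 (0.82), Txnip (0.81), Bhlhe40 (0.78), Ciart (1.13), Sema3a (1.18), Sema3c (0.59), Dusp6 (0.7), Pgm5 (1.98) and Selenop (1.26).

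The difference was lower for the peptide genes Nmu (-2.92), Cck (-1.12) and Cartpt (-0.74) and for Plat (-3.03) and Kdr (-2.25). It was also lower for Cebpd (-1.55), Ccdc184 (-1.19), Slc2a9 (-1.13), Mustn1 (-1.13), Rph3a (-1.12), Zfp703 (-1.09), Ccnd1 (-1.08), Cul4b (-0.96), Xbp1 (-0.69), Spry1 (-0.64), Aldoc (-0.62) and Derl3 (-0.59). Spry1 was not called without WT CON replicate 2 (-0.47), WT 8 h replicate 2 (-0.54) or CON replicate 2 of Med14 S983A cells (-0.47), and Sema3c not without WT 8 h replicate 1 (0.53), CON replicate 2 (0.56) or 8 h replicate 2 (0.53) of Med14 S983A cells. The Sema3c call was also lost with centring (0.50), ERCC scaling (0.54), edgeR (0.58) and DESeq2 with ERCC or its own size factors (0.498 and 0.575). Pgm5, Selenop, Ccdc184, Ccnd1, Slc7a11, Nmu, Plat, Kdr, Rph3a and Sema3a had a mean under 1 TPM in at least 1 of the 4 groups compared.

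The libraries of Med14 S983A cells after 8 h of FSK entered no comparison of the report. Of the 12 genes that rose most with 8 h of Ex-4, 11 had these mean TPM there (n = 2): Mest 1391, Cck 650.3, Gdf15 408.5, Stc1 333.7, Id4 287.5, Crem 208.2, Trib3 199.3, Gcg 106.0, Cartpt 88.75, Nr4a1 65.31 and Tent5a 23.11. These were above CON, and all but Tent5a were also above the mean at 8 h of Ex-4. These values were not tested.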

How the results depend on the processing

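The 330 higher and 317 lower calls at 8 h rested little on the test. The edgeR test called all 330 and 309 of the 317 in the same direction, and 448 and 420 genes in all, while DESeq2 with ERCC size factors called 328 and 306 of them (438 and 398 in all). A pseudocount of 0.1 TPM gave 433 and 431, and leaving out 1 library gave 316 to 377 and 305 to 350. The fold minimum set the counts: without it they were 2282 and 2915. Deviations of same-numbered libraries of Med14 S983A CON and 8 h correlated at r = -0.032, and other groups were not checked. With the replicate number as a block the counts were 330 and 317, and 203 and 82 for the difference. They were 291 and 333 for 8 against 1 h, and 128 and 279 for 16 against 8 h. Every group holds both replicate numbers, so the block leaves the fold changes as they were. Equal counts therefore do not show whether the libraries were paired.

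The difference between genotypes depended more on the processing. Its 203 higher calls became 128 with centring, 108 by DESeq2 with ERCC size factors and 1456 without the fold minimum, and edgeR called 153 of the 203. Its 82 lower calls became 53 with a mean of at least 5 TPM, 124 by edgeR, 126 and 124 by DESeq2 with ERCC and its own size factors, and 454 without the fold minimum, and edgeR called 60 of the 82. Leaving out 1 library gave 183 to 247 and 76 to 92. Between times, 8 against 1 h gave 2911 and 2195 without the fold minimum, and 260 to 361 and 321 to 357 when 1 library was left out. For 16 against 8 h, the higher calls were 74 with ERCC scaling, 227 by edgeR, 223 by DESeq2 with its own size factors and 1803 without the fold minimum, the lower calls 482 with ERCC scaling, 629 by DESeq2 with ERCC size factors and 2499 without the fold minimum, and leaving out 1 library gave 132 to 144 and 276 to 317. The cause of these shifts was not tested, other than that a fold minimum removes calls by construction.

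The direction of the difference turned for Ccnd1 (-1.08), which was 0.203 by edgeR and 0.141 and 0.213 by DESeq2 with ERCC and its own size factors, and for Slc7a11 (0.95), which was -0.642, -0.735 and -0.654. Both were under 1 TPM in a CON group, and the direction of a difference at such levels was not settled at this depth with 2 libraries a group.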

Other observations

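Some gene families outside the lists held called genes in the same comparison. They were picked by symbol after values had been seen, so their counts are descriptions with no test of the family. Over all genes tested, 3.21% were called higher and 3.09% lower in this comparison. Of 6 tested Sprouty and Spred genes, whose products inhibit receptor tyrosine kinase signalling, 3 were called higher, 0 lower and 3 in neither direction (median log2 fold change 0.56), with Spry4 at 1.85 and 2.35 TPM in CON and 6.94 and 7.44 TPM at 8 h (1.40 ± 0.08). Of 16 dual-specificity phosphatase genes 4 were higher, 1 lower and 11 neither (median 0.07), among them Dusp5, which acts on ERK in the nucleus (18.1 and 19.4 TPM and 41.3 and 42.7 TPM, 1.12 ± 0.06), and Dusp6 (0.97). Of 5 Etv factors, ETS family members that often follow ERK activity, 3 were higher and 0 lower (median 0.84), led by Etv1 (29.1 and 27.4 TPM and 68.5 and 68.7 TPM, 1.25 ± 0.05) and Etv5 (1.08).

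Phosphodiesterases as a whole family had 7 higher and 1 lower gene of 18 (median 0.12). Pde1c, a calcium-dependent enzyme, rose from 5.8 and 6.15 TPM to 26.9 and 26.9 TPM (2.00 ± 0.06), more than any member named in the report, and Pde4c fell from 18.7 and 18.9 TPM to 8.23 and 8.53 TPM (-1.08 ± 0.10). Of 3 adenosine receptors 2 were lower, Adora2b and Adora2a (24 and 24.3 TPM and 12.8 and 12.5 TPM, -0.88), both of the kind that raises cAMP. Of 4 YPEL genes 3 were lower and 0 higher (median -0.66), with Ypel3 at 138 and 153 TPM and 64.4 and 62.2 TPM (-1.19 ± 0.07) and Ypel5 at -0.73.

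Of 9 SLC7 amino acid transporters 4 were higher and 0 lower (median 0.18): Slc7a11, Slc7a8 (19.4 and 20.6 TPM and 42.2 and 40.7 TPM, 1.02), Slc7a5 and Slc7a1. Of 5 class 3 semaphorins, secreted guidance proteins, 3 were higher and 1 lower (median 0.64), with Sema3a at 1 and 0.979 TPM and 7.09 and 8.24 TPM (2.12 ± 0.10) and Sema3c at 4.8 and 4.5 TPM and 11.4 and 12.6 TPM (1.20).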
